A study of Rattus norvegicus with 14 samples.

Results

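The extracellular matrix and the proteins that hold Schwann cells to it were examined through 38 genes, chosen by how their symbols begin: collagens, laminins, integrins, cadherins, ADAM proteases and their TIMP inhibitor, tetraspanins, CD antigens, semaphorins and Eph receptors, TGFβ receptors and orphan G protein-coupled receptors. They are 38 of the 2993 genes with a symbol in a table of 4993 transcription start sites (TSSs), and 60 of those TSSs carry their names. Of 43 genes with such a symbol, 5 were left out by name (Cd9, Cd63, Cd81, Sema3b and Tgfbi). Where a gene had more than 1 listed TSS, the one with the highest mean level in nerve was taken as its main TSS, so nerve levels are a description here. Among the 38, 4 were set apart as proteins inside the cell that only share a prefix: Cd2ap (a cytoskeletal adaptor), Itgb1bp1 (an adaptor that binds the integrin β1 tail), Itgb3bp (a centromere protein) and Fgfr1op2. The others were grouped by symbol alone, and where in the cell their proteins lie was not examined.

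Each library held the 5′ ends of transcripts, captured by template switching (Tn5Prime), and each value is the reads starting at 1 TSS per 1000000 mapped reads (RPM). A transcript gives 1 such end whatever its length, so RPM was not corrected for length. Whether capture and amplification were equal between TSSs was not tested. The 14 libraries came from wild-type sciatic nerve of rats aged 6 to 9 months (2 nerves), commercial primary rat Schwann cells given vehicle (control, n = 3) or 250 µM CPT-cAMP for 3 days (cAMP, n = 3), the parental S16 line (n = 2 RNA samples of 1 line) and S16 clones with SOX10 disrupted (ΔSOX10, n = 4). S16 is an immortalised rat Schwann cell line. Both primary cell groups were grown with 10 nM neuregulin and 2 µM forskolin, which were withdrawn before treatment, and were treated in 5% serum on dishes coated with laminin and poly-L-lysine. Treatment time is recorded as 4 days for control and 3 days for cAMP. The study's methods describe the same schedule for both groups. The ΔSOX10 clones, labelled 1-1, 1-2, 2-1 and 2-2, were made with 2 guide RNAs against the first coding exon of Sox10 and grown, like the parental line, in 10% serum. Only TSSs near SOX10 and H3K4me3 peaks of sciatic nerve were listed, so each value is that of a TSS and not of the whole gene.

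Schwann cells build a basal lamina of laminins and collagens around themselves and bind it through integrins and dystroglycan, contacts that they need to sort and myelinate axons. Raised cAMP stands in for axonal signals and drives cultured Schwann cells toward a myelinating state. SOX10 is the transcription factor that maintains Schwann cell identity and activates myelin genes.

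The libraries held 29895599 to 79940274 reads, of which the listed TSSs took 28.7% to 37.0%. Sox10 itself stood at 84.1 ± 9.34 RPM (SD, n = 2) in parental cells and a mean of 0.0412 RPM (n = 4) in the clones. Of 12 Schwann cell and myelin markers, 11 were listed, and their summed level was 3786 to 3960 RPM in parental cells and 11.3 to 22.8 RPM in the clones. With cAMP, 6 of the 10 markers tested rose and 2 fell.

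At 23 of the 38 genes (60.5%) the main TSS overlapped a listed SOX10 peak, against 70.0% of all 2993 genes, and the largest gap to such a peak was 2624 bp, at Col1a1. An H3K4me3 peak, the mark of active promoters, overlapped 36 of the 38. The RefSeq promoter table (build GRCr8) held 31 of the 38 genes. Adam9, Cdh11, Cdh13, Col1a1, Col9a3, Itga6 and Itgb4 were not among them. The deposited TSSs are on build rn5, and whether a RefSeq start is the same base as a listed TSS was not tested. Gene names are the deposited assignments, and which exon or intron holds a TSS was not analysed here. The 250 bases before the RefSeq start are shown for 3 genes whose main TSS fell in ΔSOX10 cells and whose window ends at the edge of the annotated gene (Itgb8, chr6:146351246-146351495, minus strand; Tgfbr3, chr14:2634044-2634293, plus strand; Col6a1, chr20:11905440-11905689, plus strand), beside Timp3 (chr7:19459559-19459808, minus strand), whose level stayed high in the clones. Capitals mark CG pairs.
Itgb8: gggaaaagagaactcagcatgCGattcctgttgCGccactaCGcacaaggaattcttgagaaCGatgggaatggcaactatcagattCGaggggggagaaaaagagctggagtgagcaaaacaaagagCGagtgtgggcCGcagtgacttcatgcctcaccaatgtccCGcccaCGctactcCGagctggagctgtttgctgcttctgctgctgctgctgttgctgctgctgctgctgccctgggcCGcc
Tgfbr3: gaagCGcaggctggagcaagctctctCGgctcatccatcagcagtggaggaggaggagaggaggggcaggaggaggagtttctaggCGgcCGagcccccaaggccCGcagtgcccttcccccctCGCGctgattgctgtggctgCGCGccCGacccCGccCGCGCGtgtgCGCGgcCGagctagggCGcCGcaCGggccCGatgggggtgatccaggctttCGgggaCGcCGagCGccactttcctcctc
Col6a1: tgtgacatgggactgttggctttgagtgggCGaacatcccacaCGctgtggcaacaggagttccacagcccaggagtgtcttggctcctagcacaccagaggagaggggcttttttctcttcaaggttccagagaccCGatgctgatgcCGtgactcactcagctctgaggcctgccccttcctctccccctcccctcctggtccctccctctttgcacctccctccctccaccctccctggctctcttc
Timp3: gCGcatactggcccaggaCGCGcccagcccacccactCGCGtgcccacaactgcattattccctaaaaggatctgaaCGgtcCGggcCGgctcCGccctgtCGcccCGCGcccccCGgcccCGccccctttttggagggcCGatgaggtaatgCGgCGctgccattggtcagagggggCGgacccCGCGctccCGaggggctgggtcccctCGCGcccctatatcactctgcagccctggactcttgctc

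These 4 promoters differed in base composition. Col6a1 held 4 CG pairs and was 60% G or C, Itgb8 held 11 pairs at 56.4%, Timp3 23 pairs at 69.6% and Tgfbr3 25 pairs at 71.2%. The median over the 31 promoters was 15 CG pairs, in a range from 2 to 32, and over all promoters of the table it was 6. The letters ACAAAG or ACAATG, the core that SOX proteins bind, were searched on both strands from 250 bases before the start to 50 after it. They were present in 4 of the 31 promoters and in 28.6% of all 27457: ACAAAG in Itgb8, beginning 130 bases before the start, ACAATG in Sema4a, CATTGT in Tspan15 and CTTTGT in Itgb1. Among the 6 promoters of genes that fell in ΔSOX10 cells, Itgb8 was the 1 with a match. The full cAMP response element TGACGTCA was present in Cd2ap alone of the 31 and in 1.91% of all, and TATAAA on the gene's strand was present in 0 of the 31 and in 9.08% of all.

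In nerve the 38 main TSSs ranged from 2.29 to 317 RPM with a median of 13.4 RPM, beside 12.0 RPM over all genes. Col5a3 (317 ± 46.5 RPM, SD, n = 2), a collagen V chain of peripheral nerve, led the group, and Cd48 (269 ± 51.8 RPM), a glycolipid-anchored receptor of the SLAM family, followed. Col5a3 was above Cd48 in both nerves (350 and 284 against 306 and 232 RPM). With n = 2 and overlapping intervals their order was not tested. Timp3 (117 ± 2.68 RPM), which inhibits matrix-degrading proteases, and Col1a1 (103 ± 9.95 RPM), the α1 chain of collagen I, were the other genes above 100 RPM. Among the integrins Itgb4, the β4 chain that pairs with α6 to bind laminin, was highest in nerve at 48.9 ± 2.42 RPM. By mean level the remaining families were led by Tspan31 (89.6 ± 12.2 RPM), Itgb1bp1 (70.9 ± 15 RPM), Sema4c (11.8 ± 0.137 RPM), Gpr108 (11.8 ± 2.21 RPM), Tgfbr3 (10.4 ± 2.04 RPM), Cdh11 (7.52 ± 2.64 RPM) and Lamb1 (4.86 ± 0.0158 RPM). In nerve 2 Gpr137 was above Gpr108, at 10.7 against 10.2 RPM.

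Several of these TSSs were read in nerve and hardly at all in some or all of the cultured cells. Every listed TSS had been called in nerve, so a TSS active only in culture could not be listed. The primary cell libraries were also sequenced on another instrument than the nerve and S16 libraries. Nerve against culture was therefore not tested, and the share of such TSSs over all genes was not examined. Cdh11, a cadherin of mesenchymal cells, stood at 5.65 and 9.38 RPM in the nerves, and Lamc1, the laminin γ1 chain, at 2.78 and 2.71 RPM. Both had 0 reads in all 12 cultured libraries, which allows up to 0.0375 to 0.0855 RPM in each (3 reads, counting error only). Itgb4 stood at 47.2 and 50.7 RPM in nerve, between 0.0458 and 5.09 RPM in primary cells and at 0 in all 6 S16 libraries. Col6a1, the α1 chain of collagen VI, was at 21.9 and 20.8 RPM in nerve, at 0 in 5 of the 6 primary cell libraries and at 147 to 177 RPM in parental S16 cells. Nerve also holds fibroblasts, perineurial, endothelial and immune cells, and in bulk RNA fewer cells of a type and less RNA per cell cannot be told apart. Few markers of those cells were listed. Pdgfra (fibroblasts) stood at 2.5 to 3.71 RPM in nerve and Csf1r (macrophages) at 1.07 to 4.82 RPM, and in primary cells they reached at most 0.338 and 0 RPM. Pdgfrb (mural cells) stood at 27.1 to 51.2 RPM in nerve and at 0.330 to 1.91 RPM in control cells. The other fibroblast and macrophage markers and the endothelial, perineurial, adipocyte and neuron lists had no listed TSS, so the makeup of the nerve libraries was not tested.

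**Figure D1:**
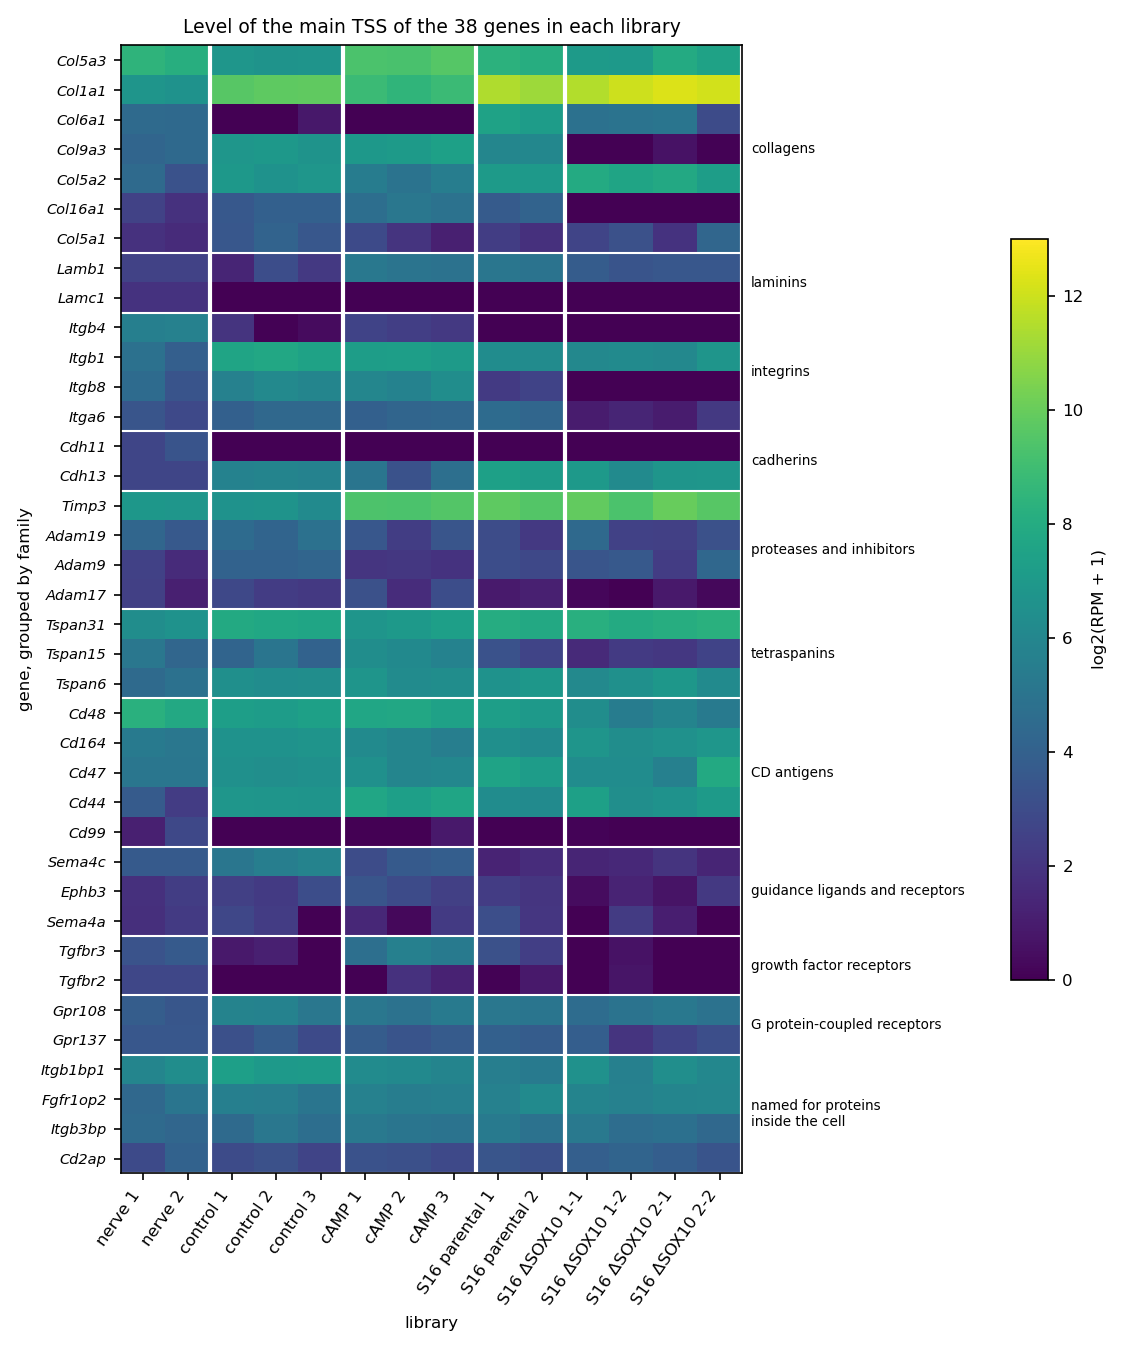
Level of the main TSS of each of the 38 genes (rows, grouped by family) in each of the 14 libraries (columns), as colour on a log2(RPM + 1) scale. Cdh11 and Lamc1 are dark in every cultured library, Col9a3 and Col16a1 are dark in the 4 ΔSOX10 clones, and Timp3 and Col5a3 are brighter with cAMP than in control.

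The cAMP comparison asked how these genes move as primary Schwann cells differentiate. Of 34 main TSSs that passed the filter on low values, 8 rose (23.5%, against 13.5% of all genes tested) and 11 fell (32.4%, against 13.9%), each at an adjusted p under 0.05 in limma on log2(RPM + 1). Cd99, Cdh11, Col6a1 and Lamc1 were under the filter. The median log2 fold change was 0.13 over the 34 and -0.03 over all 2832 genes tested. Of the 8 rises, 4 were 6.39-fold to 53.2-fold and the other 4 were 1.28-fold to 3.13-fold, and the largest fall was 5.49-fold. Pdgfrb, a mural cell marker and the only 1 of its list with a TSS, also rose, from 0.909 ± 0.869 to 24.7 ± 2.27 RPM (n = 3 each), and its part in these results was not tested.

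The collagens split. Col5a3 (rn5 chr8:21887738-21887873, minus strand) stood at 113, 99.6 and 104 RPM in control and at 637, 619 and 764 RPM with cAMP. The groups lay far apart, and its log2 fold change was 2.66 ± 0.10 (SE; limma adjusted p = 8.91e-15). Col16a1, a minor collagen that associates with fibrils, rose from 10.9, 14.6 and 15.1 RPM to 24.9, 34.2 and 29.1 RPM (2.17-fold, limma adjusted p = 0.00822), a call that was lost without cAMP replicate 2. The other chains of collagen V went the opposite way to Col5a3. Col5a2 fell from 121, 96.8 and 111 RPM to 42.5, 30.2 and 44.1 RPM (2.82-fold, limma adjusted p = 1.54e-06), and Col5a1 from 10.6, 16.4 and 10.4 RPM to 6.59, 2.84 and 1.20 RPM (3.52-fold, limma adjusted p = 0.0134). The Col5a1 call rests on few libraries: it was lost without control replicate 2, cAMP replicate 2 or cAMP replicate 3, and also in the edgeR test and with no filter on low values. Without cAMP replicate 1 its ratio of means was 6.17-fold. Col1a1 fell from 790, 891 and 892 RPM to 456, 366 and 459 RPM (2.01-fold, limma adjusted p = 1.35e-08). Col9a3, a chain of collagen IX, read 112, 121 and 101 RPM in control and 122, 133 and 166 RPM with cAMP and did not pass the test (limma adjusted p = 0.106).

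Among laminins and their receptors, Lamb1 moved most. This gene encodes the laminin β1 chain. It stood at 1.56, 7.40 and 3.42 RPM in control and at 35.6, 30.6 and 29.2 RPM with cAMP, with no overlap (7.71-fold, log2 fold change 2.84 ± 0.41, limma adjusted p = 1.80e-05). Without control replicate 2 the ratio was 12.8-fold. The integrin chains moved less. Itgb1, the common β1 chain, fell from 189, 222 and 176 RPM to 150, 153 and 135 RPM (1.34-fold, limma adjusted p = 0.0131), a call lost without control replicate 2 or cAMP replicate 3. Itga6 had a mean of 18.4 ± 2.85 RPM in control and 17.5 ± 2.27 RPM with cAMP (n = 3 each), within the spread between replicates. Itgb4 read 2.87, 0.0458 and 0.311 RPM in control and 5.09, 4.28 and 3.53 RPM with cAMP. Its groups did not overlap, yet it missed the threshold (log2 fold change 1.59 ± 0.60, limma adjusted p = 0.0591). The adaptor Itgb1bp1 fell 2.06-fold, from 140 ± 16.9 to 67.9 ± 9.34 RPM (limma adjusted p = 1.85e-05). Cdh13, a cadherin anchored by a lipid, fell from 54.0, 58.3 and 52.8 RPM to 31.8, 8.79 and 26.2 RPM (2.47-fold, limma adjusted p = 0.00189).

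The protease inhibitor gene Timp3 rose, the protease genes Adam9 and Adam19 fell, and Adam17 did not pass the test. Timp3 (chr7:23744378-23744489, minus strand) stood at 97.2, 103 and 74.5 RPM in control and at 672, 635 and 732 RPM with cAMP (7.42-fold, limma adjusted p = 1.57e-14). The metalloprotease Adam9 fell from 15.8, 16.3 and 17.8 RPM to 3.04, 3.35 and 2.70 RPM (5.49-fold, limma adjusted p = 0.000456). Adam19, a metalloprotease that cleaves neuregulin, fell from 22.6, 17.2 and 27.7 RPM to 10.6, 4.23 and 9.68 RPM (2.76-fold, limma adjusted p = 0.00755), and this call was lost without control replicate 3. Adam17, the sheddase of TNF and of many receptors, read 4.44 ± 1.36 and 5.96 ± 3.37 RPM (n = 3 each), and its groups overlapped.

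The largest rise was that of Tgfbr3. This gene encodes betaglycan, the co-receptor that presents TGFβ to the signalling receptors. It read 0.875, 1.24 and 0.0194 RPM in control and 25.9, 48.8 and 38.7 RPM with cAMP (53.2-fold, log2 fold change 4.53 ± 0.46, limma adjusted p = 1.12e-07), and 84.5-fold without control replicate 2. The signalling receptor Tgfbr2 had 0 reads in the 3 control libraries and 0, 2.59 and 1.41 RPM with cAMP, and did not pass the test (limma adjusted p = 0.280), although DESeq2 on the recovered reads called it higher.

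At the cell surface, Tspan15, a tetraspanin that partners ADAM10, rose from 21.9 ± 9.39 to 68.6 ± 14.9 RPM (3.13-fold, limma adjusted p = 4.41e-05). Cd44, the hyaluronan receptor, rose from 109 ± 5.03 to 187 ± 23.9 RPM (1.71-fold, limma adjusted p = 9.50e-05). Cd48 rose from 157, 143 and 168 RPM to 207, 217 and 173 RPM (1.28-fold, limma adjusted p = 0.0390), the smallest rise called, which was lost under 8 of 18 alternatives, among them the removal of control replicate 1 or 2 or cAMP replicate 1 or 2. Csf1r had 0 reads in these 6 libraries. Sema4c, a transmembrane semaphorin, fell from 33.2, 45.4 and 54.7 RPM to 7.07, 12.1 and 13.5 RPM (4.08-fold, limma adjusted p = 3.52e-05). Tspan31 fell 1.63-fold (limma adjusted p = 0.000303), and the sialomucin Cd164 1.68-fold (limma adjusted p = 0.00207). Cd47, Tspan6, Ephb3, Sema4a, Gpr108, Gpr137, Cd2ap, Fgfr1op2 and Itgb3bp did not pass the test, and their log2 fold changes lay between -0.45 and 0.39.

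**Figure D2:**
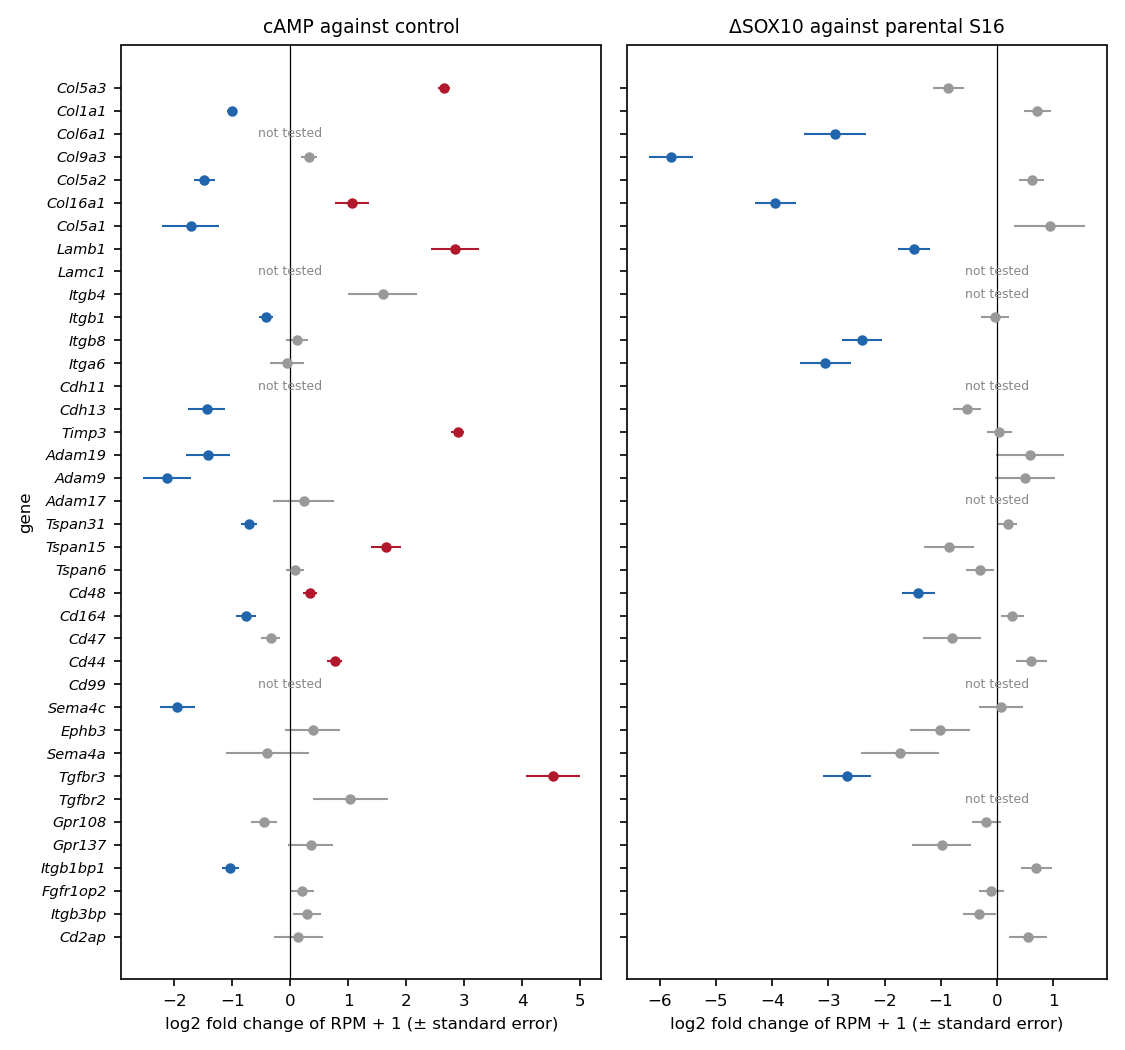
Log2 fold change of RPM + 1 with its standard error for each gene's main TSS in the cAMP comparison (left, n = 3 against 3) and in the ΔSOX10 comparison (right, n = 4 clones against 2), red for higher and blue for lower at a limma adjusted p under 0.05 and grey for no call. The left panel holds 8 red and 11 blue points and the right panel 0 red and 8 blue.

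The ΔSOX10 clones had been transfected with Cas9, selected with puromycin and grown from single cells, and the parental cells were unmodified. What these steps changed apart from SOX10 was not tested. The comparison asked which of these TSSs differed between the clones and parental S16 cells. Of 32 that passed the filter, 8 fell (25.0%, against 5.5% of all genes tested) and 0 rose by limma (against 1.99%). At an unadjusted p under 0.05, 3 had higher levels by limma, and after adjustment edgeR gave 0 and DESeq2 gave 1 (Col1a1). The count that fell was 7 by edgeR, without Tgfbr3, and 9 by DESeq2, with Col5a3 added. The median log2 fold change was -0.31 over the 32 and -0.17 over all 2763 genes tested, and the median of all TSSs, -0.18 on the RPM scale, was -0.05 after TMM scaling, which kept the same 8 calls. The median of the 32 was then -0.16. Adam17, Cd99, Cdh11, Itgb4, Lamc1 and Tgfbr2 were under the filter. The 8 were Col9a3, Col16a1, Col6a1, Lamb1, Itga6, Itgb8, Tgfbr3 and Cd48. The main TSS of 6 of them (75%) overlapped a listed SOX10 peak, near the 70.0% of all genes. The count rests on both parental libraries. Without parental replicate 1 it was 2 and without parental replicate 2 it was 3, and in both cases Col9a3, Col16a1, Itgb8 and Tgfbr3 no longer passed the filter on low values. With all TSSs kept (an alternative added after the data were seen), these 4 stayed in the test only because the full fit had passed them. Their clones lay at or near 0 RPM, where the spread between clones is small by the floor. That alternative therefore cannot rank these 4 against Col6a1, Itga6, Lamb1 and Cd48. With 1 parental library left, the spread comes from the clones alone, and the lone library is assumed to vary as they do. Against clones 1-1 and 1-2 alone 9 fell, without Cd48 and with Cd47 and Col5a3 added. Against 2-1 and 2-2 alone the same 8 fell. Both splits use the same 2 parental libraries. Cd47 was also called lower without clone 2-2. That clone stood at 238 RPM, above the 183 and 144 RPM of parental cells, while the others stood at 79.1, 79.4 and 49.7 RPM.

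The collagens that fell were Col9a3, Col16a1 and Col6a1. Col9a3 (rn5 chr3:179802981-179803079, plus strand) stood at 60.7 and 64.4 RPM in parental cells and at 0, 0.0254, 0.546 and 0.0570 RPM in the clones. Every clone was more than 100-fold under the parental cells, with a ratio of means of 398 and a log2 fold change of -5.80 ± 0.39 (limma adjusted p = 3.82e-05). Clone 2-1 held most of its reads in the clones: without it 3 reads were left and the ratio was 2277, with an exact 95% Poisson interval from 779 to 11043. Col16a1 (chr5:151983498-151983698, plus strand) stood at 12.5 and 16.8 RPM in parental cells, and 1 read was found over the 4 clones together. Its ratio of means was 2143, with an exact 95% Poisson interval from 385 to 84635 that covers counting error of that read only (limma adjusted p = 0.000206). That read came from clone 2-1, and against the other 3 clones, at 0 reads, it was at least 184-fold lower at the floor of 3 reads per library. Col6a1 (chr20:14817406-14817489, plus strand) fell from 177 and 147 RPM to 28.1, 30.05, 32.1 and 6.84 RPM (6.67-fold, limma adjusted p = 0.0113), and was the collagen that kept the most signal of the 3. The fibril collagens Col1a1, Col5a1 and Col5a2 had log2 fold changes of 0.71, 0.94 and 0.61, with limma adjusted p of 0.127, 0.475 and 0.160. Col1a1 was at 2770 and 2200 RPM in parental cells and at 2910, 4080, 5171 and 4388 RPM in the clones. Col5a3 was at 326 and 278 RPM against 134, 126, 245 and 176 RPM, without overlap, and did not pass the test (limma adjusted p = 0.0984), but DESeq2 called it lower, as did limma with all 14 libraries in one model, without clone 2-1 or against clones 1-1 and 1-2 alone.

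Lamb1, Itga6 and Itgb8 also fell. Lamb1 (chr6:59204077-59204190, plus strand) went from 32.8 and 30.4 RPM to 12.6, 9.38, 10.6 and 10.5 RPM (2.94-fold, limma adjusted p = 0.0115). Itga6 (chr3:64931823-64931900, plus strand), the α6 chain of laminin receptors, went from 22.5 and 18.2 RPM to 0.994, 1.5, 0.956 and 3.39 RPM (11.9-fold, limma adjusted p = 0.00336). Itgb8 (chr6:156081499-156081544, minus strand), the integrin chain that with αv activates latent TGFβ, stood at 3.59 and 5.13 RPM in parental cells and at 0 reads in all 4 clones, at least 54.5-fold lower at a floor of 3 reads per library (limma adjusted p = 0.00308). The common β1 chain did not pass the test: Itgb1 was at 79.0 ± 2.02 RPM in parental cells and 78.7 ± 21.3 RPM in the clones (limma adjusted p = 0.948).

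The TGFβ co-receptor Tgfbr3 (chr14:3509508-3509668, plus strand) stood at 8.41 and 4.38 RPM in parental cells and at 0, 0.559, 0 and 0 RPM in the clones (45.8-fold, limma adjusted p = 0.00425). It was not called by the edgeR test on recovered reads. Its reads in the clones all came from clone 1-2, and against the other 3 it was at least 78.7-fold lower at the floor of 3 reads per library. Cd48 (chr13:94737378-94737544, plus strand) fell from 157 and 130 RPM to 80.8, 43.3, 58.0 and 40.3 RPM (2.59-fold, limma adjusted p = 0.0193), and this call was lost without parental replicate 1 and against clones 1-1 and 1-2 alone. Timp3 was as high in the clones as in parental cells, at 846 ± 168 and 812 ± 94.0 RPM, and its log2 fold change was 0.04 ± 0.21 (limma adjusted p = 0.935). The proteases, tetraspanins, cadherins, guidance molecules and G protein-coupled receptors gave no call at their main TSS, nor did the 4 genes named for proteins inside the cell.

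**Figure D3:**
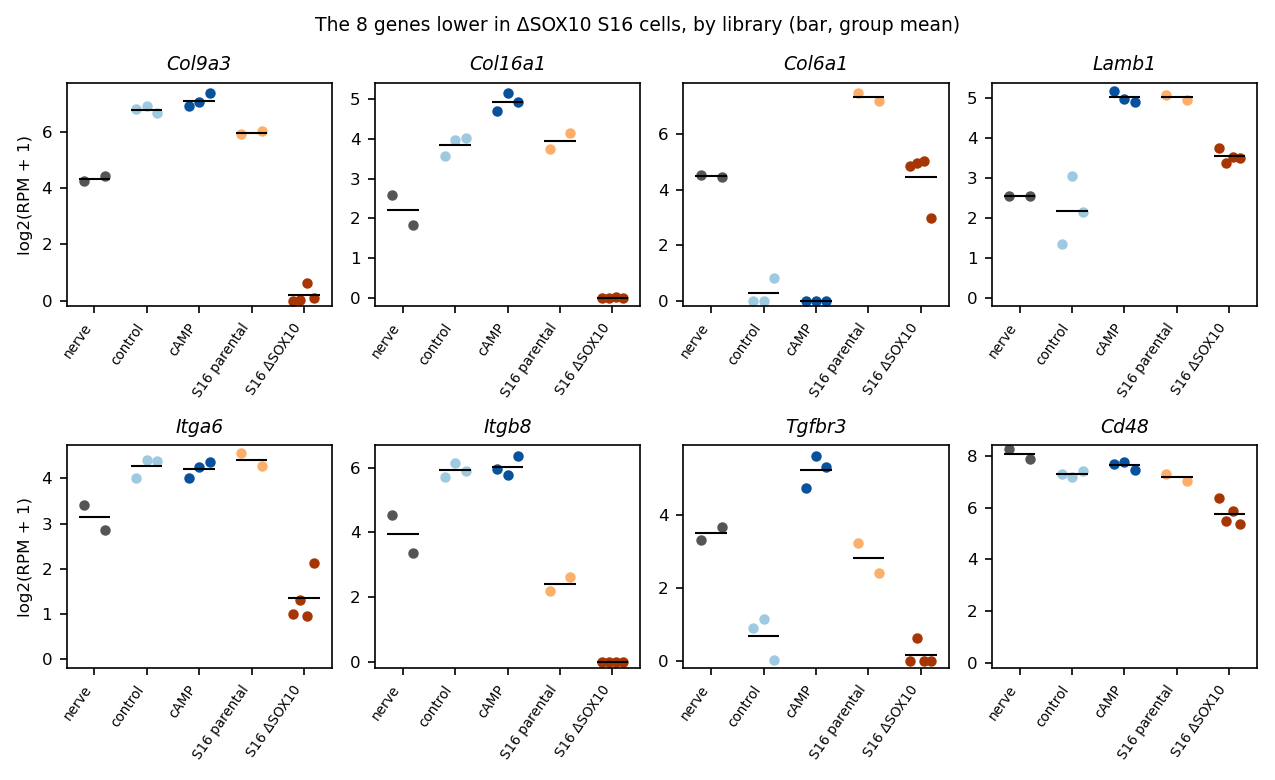
Levels of the main TSS of the 8 genes that fell in ΔSOX10 cells, on a log2(RPM + 1) scale that differs between panels. Points are libraries and bars are group means. In each panel the 4 clones lie under both parental libraries, and Col6a1 lies near 0 in primary cells.

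The 2 comparisons share no libraries. Of the 8 genes that rose with cAMP, 4 fell in ΔSOX10 cells (Col16a1, Lamb1, Tgfbr3 and Cd48), and of the 11 that fell with cAMP, 0 did at their main TSS, by limma after adjustment or at an unadjusted p under 0.05, by edgeR or by DESeq2. The upstream TSS of Sema4c fell in both. Over all genes, 20.4% of those that rose with cAMP and 5.38% of those that fell with it were lower in ΔSOX10 cells. Col9a3, Itga6 and Itgb8 fell in ΔSOX10 cells with no call under cAMP, and Timp3, Tspan15 and Cd44 rose with cAMP with no call in ΔSOX10 cells. Col5a3 rose with cAMP and was not called by limma in ΔSOX10 cells, where DESeq2 called it lower. No pattern of calls was tested as a difference between the models.

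Of the 38 genes, 10 had more than 1 listed TSS, with 22 further TSSs. Most of these were weak: the 7 further TSSs of Col1a1, all downstream of its main TSS, reached 10.6 RPM in nerve against 110 RPM for the main one, and those of Itga6, Itgb4, Gpr137 and Cd99 reached at most 1.98 RPM in culture. The further TSSs of Itgb1bp1, Tspan31 and Tspan6 stayed under 6 RPM in every cultured library. Itgb8 had a further TSS of the same order as the main one in control cells. At Sema4c a further TSS was stronger than the main one in control (means of 166 against 44.4 RPM) and in parental S16 cells (8.02 against 1.80 RPM). Unequal change among the TSSs of a gene was tested with limma diffSplice, chosen after the data were seen. It runs only on genes with more than 1 TSS above the filter. Of the 38, these were Col1a1, Itgb1bp1, Itgb8, Sema4c and Tspan31 with cAMP, and also Tspan6 in the ΔSOX10 comparison. In the ΔSOX10 comparison it called Itgb8 and Sema4c, among 21 of 417 genes run (5.04%). With cAMP it called 44 of 460 genes run (9.57%) and none of those named, where Itgb8 had the smallest adjusted p (0.321). Without adjustment, limma diffSplice placed the Itgb8 main TSS alone of these under 0.05 with cAMP (limma adjusted p = 0.255), and no other tool was run.

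At Itgb8 the main TSS and a TSS 802 bp upstream were about equally strong in control cells, at 51.2, 69.2 and 58.9 RPM and at 58.6, 61.3 and 75.3 RPM. With cAMP the upstream TSS fell to 15.7, 15.4 and 20.7 RPM (3.77-fold, limma adjusted p = 1.54e-06), while the main TSS read 61.1, 53.8 and 82.0 RPM and did not pass the test (limma adjusted p = 0.722). A TSS 151 bp upstream of the main one read 15.0, 24.7 and 21.1 RPM in control and 2.18, 5.46 and 15.3 RPM with cAMP (2.65-fold, limma adjusted p = 0.0167). These groups overlapped, and without cAMP replicate 3 the ratio was 5.31-fold. In S16 cells the upstream TSS was near the detection limit, at 0.136 and 1.24 RPM in parental cells and 0 to 1.73 RPM in the clones, whereas the main TSS had 0 reads in every clone. The difference between both changes was -2.59 on the log2 scale (limma diffSplice adjusted p = 0.0109). With the TSSs of the gene summed, Itgb8 was no longer called in ΔSOX10 cells and was called lower with cAMP.

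Sema4c showed the opposite arrangement in S16 cells. Its TSS 1537 bp upstream stood at 6.53 and 9.51 RPM in parental cells and at 0.586, 2.21, 0 and 0.314 RPM in the clones (10.3-fold, limma adjusted p = 0.0208), and 26.7-fold without clone 1-2. The main TSS read 1.80 ± 0.537 RPM in parental cells and 1.95 ± 0.628 RPM in the clones. The change at the main TSS exceeded that at the upstream TSS by 2.54 on the log2 scale (limma diffSplice adjusted p = 0.0185). With cAMP both fell, the upstream TSS from 146, 174 and 179 RPM to 46.5, 33.8 and 28.8 RPM (4.58-fold, limma adjusted p = 2.91e-09). In nerve the order was the other way round, with 3.75 and 1.85 RPM upstream and 11.7 and 11.9 RPM at the main TSS.

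**Figure D4:**
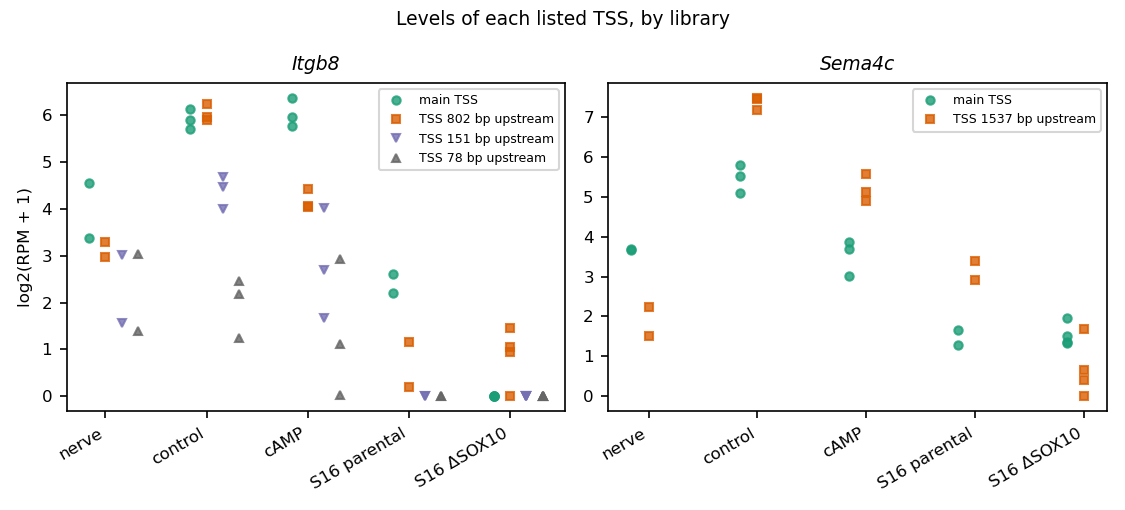
Levels of each listed TSS of Itgb8 (left) and Sema4c (right) by library, on a log2(RPM + 1) scale, with the distance of each further TSS upstream of the main one in the legend. The Itgb8 main TSS is at 0 in the 4 ΔSOX10 clones, and the upstream Sema4c TSS lies under both parental libraries in all 4 clones.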

How the data were processed

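Tn5Prime libraries from 2 nerves, 6 primary cultures, 2 parental RNA samples and 4 clones were analysed. The authors called TSSs in nerve (Make_CTSS, Paraclu), kept those near H3K4me3 and SOX10 peaks, and deposited RPM per TSS and library with log2 fold changes and corrected p-value columns of their own, which were not used. The submitters' processing notes name cutadapt 1.14, STAR 2.5.2a, SAMtools 1.9, featureCounts from Subread 1.6.1 and edgeR 3.24.3, and the build is rn5. Replicates were not pooled. RPM divided by the value of 1 read gave whole reads (within 0.02) for all values of 10 libraries, and in both parental libraries and clones 1-1 and 1-2 for 91.6% to 93.0%, where 8.59% to 9.35% of values were rounded. Molecular identifiers are not given in the sources used here, so intervals cover counting error only.

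A TSS was tested if 2 or more of the libraries compared exceeded 1 RPM. The test was limma 3.58.1 (R 4.3.3) on log2(RPM + 1) with Benjamini-Hochberg adjustment over all TSSs tested and a threshold of 0.05. Fold changes on that scale understate those of low TSSs, so ratios of mean RPM are printed beside them. Alternatives were other pseudocounts, filters and scalings, edgeR 4.0.16 and DESeq2 1.42.0 on the recovered reads, and leaving out libraries. Named were all genes called, the highest of each family in nerve, those with more than 1 TSS and those under the filter. The members and lists were chosen with earlier results of these data known. The independence of the primary cultures is the study's statement, and the parental samples are of 1 line, so p-values there measure the spread between samples that may be technical.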

Additional observations from a re-analysis of the deposited data

Results flagged for a closer look

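Within the 4 ΔSOX10 clones, 1 clone stood apart from the others at 4 of 32 genes examined. The measure was the gap from that clone to its nearest neighbour over the whole range of the clones, on log2(RPM + 1). Normally distributed values meet this check in about 1 of 20 groups, a rate that need not hold for clones mostly at 0 reads. For Tgfbr3 (value 1) clone 1-2 was the highest, at 0.559 RPM with the others at 0 reads. For Col9a3 (value 0.873) clone 2-1 was the highest, at 0.546 RPM, still far under the parental 60.7 and 64.4 RPM. For Col6a1 (value 0.909) clone 2-2 was the lowest, at 6.84 RPM beside 28.1 to 32.1 RPM. For Tgfbr2 (value 1), which was under the filter, clone 1-2 was the highest at 0.661 RPM with the others at 0 reads. The labels of the clones do not say which guide RNA made each. Between clones 1-1 and 1-2 and clones 2-1 and 2-2, 0 of 32 genes differed by limma after adjustment (smallest adjusted p 0.761). At an unadjusted p under 0.05 in limma 1 did, Col5a3, at 130 RPM against 211 RPM. Over all 3875 TSSs tested, 0 differed after adjustment and 245 did at an unadjusted p under 0.05. No other tool was run on that split. For Tgfbr3 and Tgfbr2 the value is 1 by construction, since all clones but 1 are at 0.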

How the results depend on the processing

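The direction of all 27 calls at main TSSs held under every alternative that could be fitted, in 458 fits with the call kept and 41 with it lost. Without a filter on low values, 6 genes fell with cAMP in place of 11. With a mean of at least 5 RPM, 5 fell in ΔSOX10 cells in place of 8. Leaving out 1 library, 6 to 8 rose and 9 to 12 fell with cAMP, and 2 to 9 fell and 0 to 1 rose in ΔSOX10 cells. With the parental libraries left out in turn and all TSSs kept (added after the data were seen), calls rested on clones near the floor and are not counted here. The count that rose in ΔSOX10 cells was 1 with DESeq2, with all 14 libraries in one model, and against clones 2-1 and 2-2 alone. The median ΔSOX10 log2 fold change was -0.67 without the 4 genes named for proteins inside the cell (also added later). The ratios of means without 1 library were likewise added later. The causes of the other shifts were not tested.

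Whether control and cAMP cultures with the same replicate number were paired is not stated. Deviations of same-numbered libraries correlated at 0.029, 0.0075 and 0.038, which with 3 libraries per group cannot settle it. With a replicate block, 9 rose and 11 fell, Itgb4 being the gene gained. No paired analysis was possible for the S16 cells because their groups share no replicate number.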

Other observations

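Of 92 other matrix and adhesion genes on a fixed list, 24 had a listed TSS. With cAMP 7 of the 24 rose and 7 fell, beside 13.5% and 13.9% of all genes tested. Vwa1, a matrix protein of basement membranes, rose from 40.7 ± 5.77 to 508 ± 53.4 RPM (n = 3 each, limma adjusted p = 2.80e-15), and Gldn, the gliomedin of nodes of Ranvier, from 62.8 ± 2.75 to 175 ± 5.93 RPM (limma adjusted p = 1.93e-08). Of the 7 that fell, Cadm1, a cell adhesion molecule of the immunoglobulin family, went from 693 ± 41.2 to 93.3 ± 8.19 RPM (limma adjusted p = 2.10e-15). Pxn (paxillin) went from 93.8 ± 1.22 to 20.5 ± 2.36 RPM (limma adjusted p = 1.61e-08), Zyx (zyxin) from 99.2 ± 5.48 to 16.6 ± 0.927 RPM (limma adjusted p = 1.74e-09), and Tln1 (talin) and Actn4 (actinin) also fell. Serpinh1, the collagen chaperone, fell from 1068 ± 49.1 to 433 ± 78.9 RPM (limma adjusted p = 6.90e-10).

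In ΔSOX10 cells 1 of 23 rose and 6 fell, beside 1.99% and 5.5% of all genes tested. Among those that fell were Vwa1, from 254 ± 16.3 to 27.7 ± 11.1 RPM (limma adjusted p = 0.000281), Chadl, from 23.8 ± 0.877 RPM to 0 reads in all 4 clones (limma adjusted p = 7.21e-05), Jam3, a junctional adhesion molecule, from 88.2 ± 9.26 to 21.9 ± 6.92 RPM (limma adjusted p = 0.00662), and Ddr1, a collagen receptor, from 8.58 ± 0.949 to 0.688 ± 0.584 RPM (limma adjusted p = 0.00813). Cav1 (caveolin) was the gene that rose, from 12.5 ± 4.58 to 167 ± 41.7 RPM (limma adjusted p = 7.82e-05).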
